A study of Mus musculus with 3 samples.

Results

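The mitochondrial ribosomal protein genes were taken as every gene whose symbol is Mrpl or Mrps followed by a number and at most 1 letter. This gave 78 of 50600 annotated genes, all protein-coding, of which 49 carry large subunit (Mrpl) symbols and 29 small subunit (Mrps) symbols. They were measured in 3 libraries of Th1 cells, the helper T cells that drive immunity to intracellular microbes and make interferon gamma. The cells were primary cells of mouse strain C57BL/6NJ. They form 1 group of biological replicates numbered 1, 2 and 3 in the labels, and the file headers place them at 48 h of a time course that also ran Th2 cells. The Th2 arm and other times were not analysed here, so the comparisons were among genes within each library and among the 3 libraries. All 3 libraries carry one donor identifier, and the labels state neither separate animals nor separate cultures. A p-value across libraries thus speaks for these 3 libraries alone, and the differences between them may be technical. No transgene or drug is named, age is unknown and sex was not recorded.

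Mitochondria keep their own ribosome, which translates the few proteins encoded by mitochondrial DNA, all of them subunits of the respiratory chain and ATP synthase. Its ribosomal RNAs come from mitochondrial DNA, but every one of its proteins is encoded in the nucleus, made in the cytosol and imported. Some of the proteins descend from bacterial ribosomal proteins and others were added in mitochondria. T cells build up mitochondria and their translation when they are activated.

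Depth differed widely. Total counts were 4742025, 50627 and 3543816 in replicates 1, 2 and 3, and 1 count was worth 0.211, 19.8 and 0.282 CPM, counts scaled to the library total. A count of 0 allows up to 3 counts, or 0.633, 59.3 and 0.847 CPM, and these limits and all intervals cover counting error only. Levels per gene length are given as TPM, counts per exonic length scaled to the same sum in each library. The labelled cell type was checked against marker lists. All 8 T cell markers reached 1 TPM in every library, as did 6 of 7 Th1 markers, among them Tbx21, the Th1 master regulator, at 98.0, 99.6 and 52.0 TPM in replicates 1, 2 and 3. Among Th2 markers, Gata3 had 68, 0 and 37 counts, Il4 25, 2 and 24, and Il13 34, 0 and 17. All 3 natural killer and all 3 erythroid markers were at 0 counts in every library. Of the CD8 T, B cell and myeloid markers some were read: Cd8b1 had 21, 1 and 13 counts while Cd8a was at 0, Cd79a had 10, 0 and 22 while Ms4a1 was at 0, and Cd68 had 12, 0 and 5 while Lyz2 and Itgam were at 0. Csf1r, a myeloid marker, had 1096, 10 and 1606 counts, with 17.8% of its exonic length under an exon of the opposite strand. In bulk RNA, fewer cells of a type and less RNA per cell cannot be told apart.

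Many mitochondrial ribosomal protein genes started close to a neighbour read in the other direction. A protein-coding gene started head to head within 1000 bp of 31 of the 78 genes (39.7%), namely 22 of 49 large subunit genes (44.9%) and 9 of 29 small subunit genes. Among all protein-coding genes the share was 10.6%, and among those at 1 TPM or more in replicates 1 and 3 it was 18.9%. In 15 of these pairs the promoter windows held a stretch between the starts, free of annotated exons, that was long enough to show. Of the 15, 5 held at least 1 of the 3 motifs named below and 10 held none; all 5 with a motif and 1 without are shown, because both genes of a pair start beside them. They come from the RefSeq promoter windows on GRCm38.p6 and run 5′ to 3′ on the strand of the mitochondrial ribosomal gene. Capitals mark matches on either strand to 3 motifs, the ETS motif CCGGAAG, the NRF1 motif GCATGCGC and the YY1 motif AAGATGGC; ETS family factors such as GABP, together with NRF1 and YY1, are known regulators of nuclear genes for mitochondrial proteins.
Mrpl43 and Twnk, chr19:45006443-45006557, minus strand: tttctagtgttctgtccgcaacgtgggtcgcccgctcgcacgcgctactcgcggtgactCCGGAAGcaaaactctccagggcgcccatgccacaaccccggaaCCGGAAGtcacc
Mrpl10 and Lrrc46, chr11:97041408-97041559, plus strand: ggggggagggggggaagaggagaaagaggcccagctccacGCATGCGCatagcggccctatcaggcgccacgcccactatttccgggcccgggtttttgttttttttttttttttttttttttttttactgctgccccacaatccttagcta
Mrps18b and Ppp1r10, chr17:35916391-35916433, minus strand: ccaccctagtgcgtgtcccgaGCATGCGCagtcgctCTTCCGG
Mrps18c and Helq, chr5:100798599-100798626, plus strand: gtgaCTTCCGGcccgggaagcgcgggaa
Mrps27 and Ptcd2, chr13:99344706-99344785, plus strand: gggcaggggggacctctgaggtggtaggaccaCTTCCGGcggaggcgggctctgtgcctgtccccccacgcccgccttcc
Mrps12 and Sars2, chr7:28741821-28741991, minus strand: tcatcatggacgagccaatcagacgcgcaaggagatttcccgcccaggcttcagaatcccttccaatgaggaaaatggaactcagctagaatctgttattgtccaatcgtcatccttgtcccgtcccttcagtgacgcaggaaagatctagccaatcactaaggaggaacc
The Mrpl43 stretch holds the ETS motif at 2 places, and the 43 bases between Mrps18b and Ppp1r10 hold an NRF1 match next to an ETS match. The Mrps12 stretch holds none of the 3 motifs, but the whole promoter window of Mrps12, which runs past the start, holds both an ETS and a YY1 match.

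The neighbours that start head to head with members have varied roles. Mrpl43 had 50.1, 0 and 24.7 TPM in replicates 1, 2 and 3, against 19.5, 11.8 and 9.45 TPM for Twnk, which encodes the helicase that unwinds mitochondrial DNA. Mrps12, a protein of the decoding centre, had 57.5, 0 and 29.3 TPM, against 11.0, 0 and 5.51 TPM for Sars2, the mitochondrial seryl-tRNA synthetase. In both pairs the mitochondrial ribosomal gene was the higher one per length in replicates 1 and 3. Mrpl32 had 164, 108 and 56.1 TPM, against 550.2, 787 and 189 TPM for Psma2, a proteasome subunit gene that starts 205 bp away. Mrpl49 had 81.1, 120 and 45.1 TPM, against 738, 811 and 470.6 TPM for Fau, which encodes a cytosolic ribosomal protein fused to a ubiquitin-like protein. In these pairs the neighbour was the higher gene in every library.

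Of the 78 genes, 69 had a RefSeq promoter window, from 250 bases before the start to 50 after it. The ETS motif stood in 26 of the 69 windows (37.7%), 15 of 43 large subunit windows and 11 of 26 small subunit windows, against 12.9% of the windows of all protein-coding genes and 23.4% of those at 1 TPM or more in replicates 1 and 3. The YY1 motif stood in 12 windows (17.4%), against 3.57% and 6.21%, and the NRF1 motif in 8 (11.6%), against 3.94% and 6.86%. At least 1 of the 3 motifs was present in 38 of 69 windows, and 3 windows held both the ETS and the YY1 motif, whose letters can overlap at AAG. The TATA box TATAAA stood in 5 windows (7.25%), against 14.8% and 8.03%, and the CCAAT box CCAAT in 27 (39.1%), against 42.3% and 43.4%. The E box CACGTG, a site bound by MYC, stood in 5 windows (7.25%), against 8.91% and 12.1%. Members with an ETS match had a median of 45.8 TPM in replicate 1 and members without one 49.5 TPM. Among members without opposite-strand exons the order turned, with 45.8 TPM over 16 members with an ETS match and 38.3 TPM over 30 without. These matches are letters in a window and not measured binding.

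Nearly every mitochondrial ribosomal protein gene was read in both deep libraries. At least 1 TPM was reached in replicates 1 and 3 by 76 of the 78 genes (97.4%), against 44.3% of protein-coding genes, and in every library by 58 (74.4%), against 29.4%. The 58 were 37 of 49 large subunit genes and 21 of 29 small subunit genes. The 20 other members had no count in replicate 2, where their share of the counts of replicates 1 and 3 predicted between 0.0122 and 2.66 counts. All of these lie under the 3 counts that a count of 0 allows. The exceptions in the deep libraries were Mrpl53 and Mrpl23. Mrpl53 had 1, 0 and 1 counts in replicates 1, 2 and 3, and 88.0% of its exonic length lies under Gm42688 on the same strand, where a fragment is assigned to neither gene. Mrpl23, a protein at the exit tunnel, had 30, 0 and 9 counts over 4883 bp of annotated exons, or 2.87, 0 and 0.935 TPM.

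Together the 78 genes took 0.502, 0.551 and 0.449% of all counts in replicates 1, 2 and 3. The exact 95% limits were 0.496 and 0.508% for replicate 1, 0.488 and 0.619% for replicate 2, and 0.442 and 0.456% for replicate 3. Their median level was 45.0, 26.9 and 21.9 TPM in replicates 1, 2 and 3. They stood below the cytosolic ribosomal protein genes, whose median was 632, 530 and 291 TPM, and below the nuclear subunits of oxidative phosphorylation, at 88.9, 43.6 and 41.1 TPM. Among genes without opposite-strand exons the median log2(TPM + 1) of the members lay 4.09 ± 0.22 below the cytosolic ribosomal proteins and 1.04 ± 0.11 below the oxidative phosphorylation genes (SD, n = 3 libraries).

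Large subunit genes had a higher median TPM over all annotated exons than small subunit genes in all 3 libraries. The median was 50.1, 35.6 and 23.5 TPM over the large subunit genes in replicates 1, 2 and 3, against 31.1, 20.0 and 11.9 TPM over the small subunit genes. On the log2(TPM + 1) scale the large minus small difference of medians was 0.67, 0.80 and 0.93, with a mean of 0.80 ± 0.13 (SD, n = 3). An exact sign-flip permutation test, two-sided, gave p = 0.25, the smallest p that 3 libraries allow. Without the members under opposite-strand exons it was 0.72, 0.88 and 0.80. The difference was smaller on other scales. Averaged over the libraries it was 0.11 in CPM, which ignores length, and 0.44 between means. It was 0.40 when the length of the principal transcript replaced that of all annotated exons. Over the principal transcript replicates 1, 2 and 3 gave 0.10, 0.63 and 0.45, with medians of 57.8 and 53.8 TPM in replicate 1. The annotated exons were longer than the principal transcript by a median factor of 1.19 in large subunit genes and 1.47 in small subunit genes. Symbols do not always give the place of the protein, since MRPS18A and MRPS30 sit in the large subunit in human ribosomes and MRPS36 is a part of the alpha-ketoglutarate dehydrogenase complex. With Mrps18a and Mrps30 moved to the large subunit and Mrps36 left out, the difference was 0.73.

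**Figure D1:**
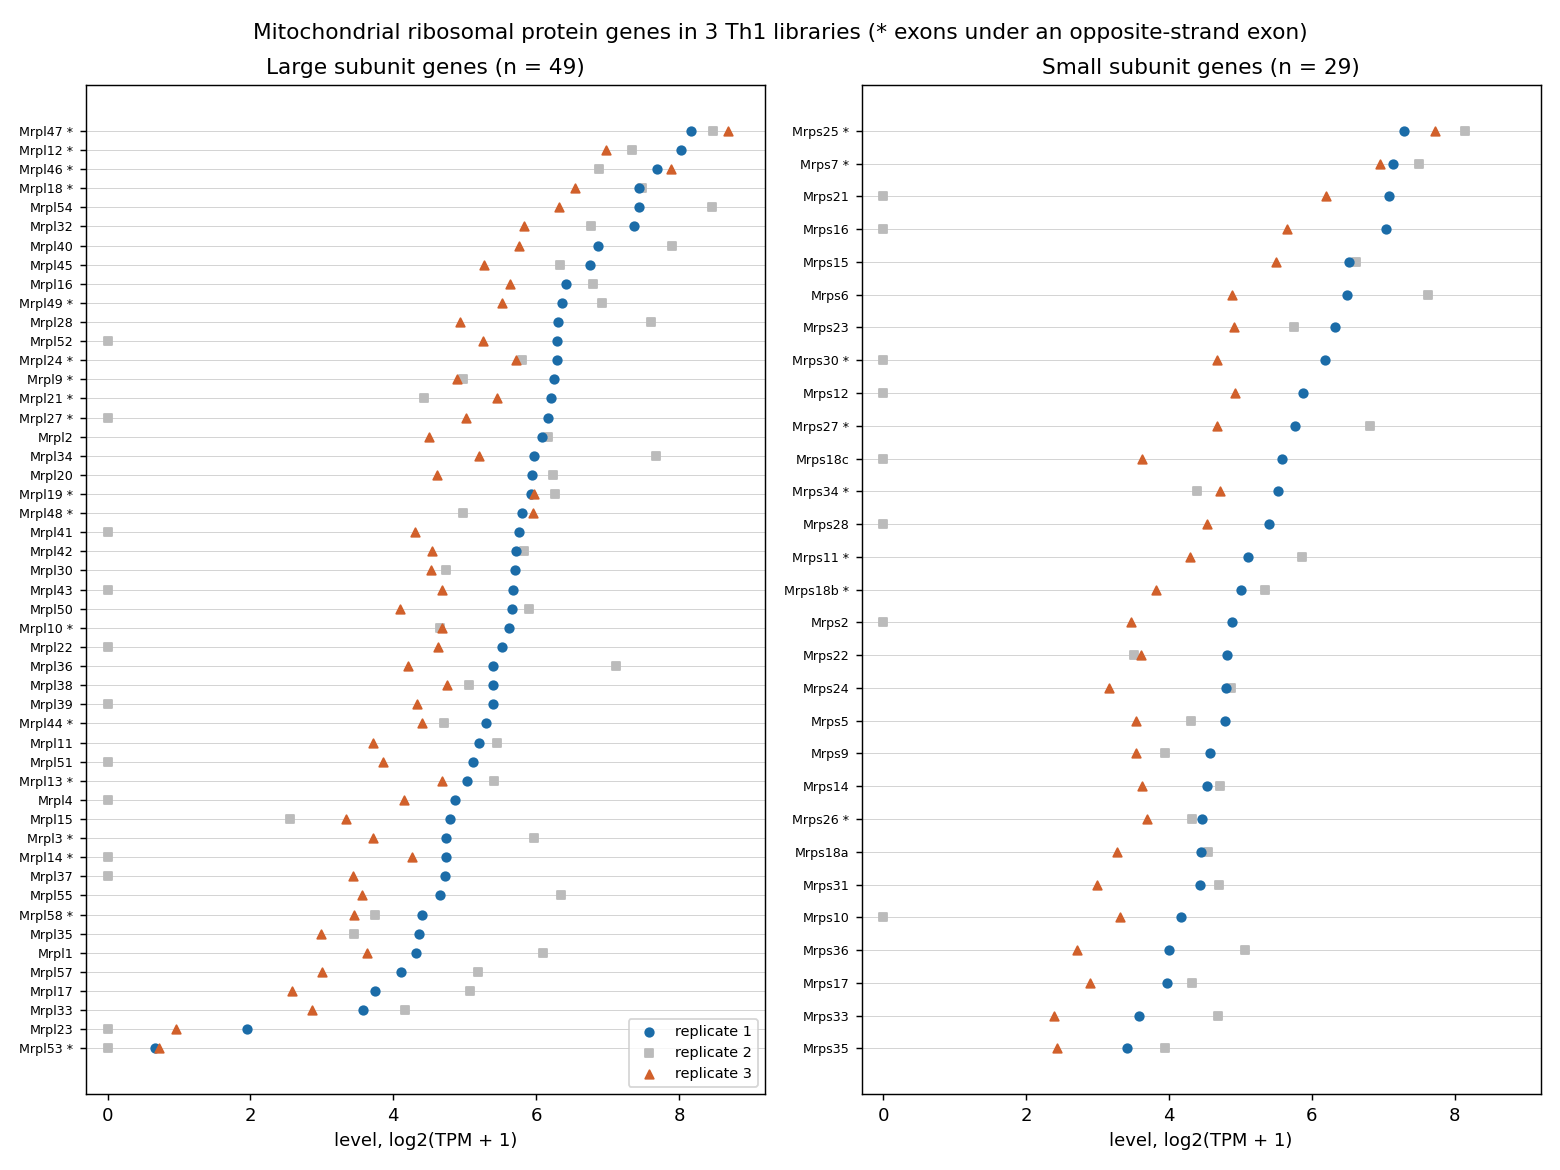
Level of each of the 78 genes as log2(TPM + 1) (x axis) in replicate 1 (circles), replicate 2 (squares) and replicate 3 (triangles), large subunit genes left and small subunit genes right, ordered by replicate 1; an asterisk marks genes with exons under an opposite-strand exon. The triangles lie right of the circles in Mrpl47, Mrpl46, Mrps25, Mrpl48, Mrpl19 and Mrpl53 and left of them in the other genes, and 20 genes have their square at 0.

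The plot of levels by gene shows that subunits of one complex were read at unequal levels. The middle 50% of the genes ran between 25.5 and 76.5 TPM in replicate 1 and between 10.7 and 36.8 TPM in replicate 3. The SD of log2(TPM + 1) over the 78 genes was 1.29 in replicate 1 and 1.41 in replicate 3, against 1.74 and 1.84 over the protein-coding genes at 1 TPM or more in every library. In replicate 2 it was 2.77, where 20 members were at 0. The order of the genes was alike in the deep libraries, with a Pearson r of 0.94 and a Spearman rho of 0.95 between replicates 1 and 3 over 78 genes that share gene lengths and annotation. Between replicates 1 and 2 these were 0.38 and 0.48. With Mrps36 set aside, 46 genes for proteins of bacterial ancestry and 31 for proteins added in mitochondria had medians of 45.8 and 45.3 TPM in replicate 1, and the bacterial minus added difference of median log2(TPM + 1) was 0.02, 0.22 and 0.13 in replicates 1, 2 and 3. Without opposite-strand exons the sign turned, with -0.10, -0.16 and -0.38.

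By role, members of the same substructure were read at different levels. In the flexible stalk that recruits translation factors, Mrpl12, whose human protein also binds the mitochondrial RNA polymerase, had 259, 162 and 125 TPM in replicates 1, 2 and 3. Its partner on the stalk Mrpl10 had 48.1, 24.2 and 24.7 TPM, and Mrpl11 at the stalk base had 35.7, 43.0 and 12.1 TPM. Mrpl12 was thus the highest of the 3 in every library. Among proteins of the central protuberance, Mrpl46 had 207, 117 and 236 TPM, while Mrpl38 had 41.0, 32.4 and 25.9 TPM. Mrpl40, in the same region, had 115, 238 and 53.1 TPM. Mrpl45, which in human mitochondria helps to hold the exit tunnel at the inner membrane, had 107, 79.5 and 37.7 TPM. In the small subunit the decoding protein Mrps12 had 57.5, 0 and 29.3 TPM, and Mrps7, a protein of the head, had 140, 179 and 122 TPM. Mrps22, a gene of human mitochondrial disease, had 27.1, 10.3 and 11.2 TPM. Mrpl12, Mrpl10, Mrpl46 and Mrps7 have 13.1, 14.1, 12.2 and 11.9% of their exonic length under opposite-strand exons. Their reads and those of the genes facing them may not be told apart. The other members named here have no such overlap. The members of this paragraph were chosen for their roles after their values were seen.

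Among the members without opposite-strand exons, the highest by the mean of replicates 1 and 3 were Mrpl54, Mrpl32, Mrps21, Mrps16 and Mrpl40. Mrpl54 had 305, 7 and 128 counts and 173, 350 and 78.7 TPM in replicates 1, 2 and 3. Mrpl32, whose bacterial-type protein is trimmed by a mitochondrial protease before it joins the ribosome, had 270, 2 and 85 counts and 164, 108 and 56.1 TPM. Mrps21 had 213, 0 and 105 counts, and Mrps16, whose human gene is mutated in a mitochondrial disease, had 158, 0 and 55 counts. With 0 counts in replicate 2, neither can be ranked in that library. The lowest were Mrpl23, Mrps35, Mrps33, Mrpl33 and Mrpl17. Mrps35 had 178, 3 and 75 counts over 8631 bp, or 9.63, 14.4 and 4.41 TPM, and Mrps33 had 39, 1 and 14 counts, or 10.9, 24.8 and 4.26 TPM. Mrpl17 had 202, 6 and 75 counts over 7605 bp, or 12.4, 32.6 and 5.00 TPM. In replicate 1 Mrps35 and Mrpl17 thus had more counts than Mrps16, one of the highest per length, over far longer annotated exons.

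Longer genes tended to have lower TPM, though length also enters the TPM. Over all 78 members, log2 exonic length and log2(TPM + 1) in replicate 1 had a Pearson r of -0.37 and a Spearman rho of -0.47. Over the 52 members without opposite-strand exons these were -0.69 and -0.71. In counts the sign turned. Log2 exonic length and log2(count + 1) in replicate 1 had a Pearson r of 0.42 over the 78 members and 0.34 over the 52. The exons annotated for a member had a median total of 2080.5 bp and its principal transcript, never counted as longer than those exons, had a median of 1216.5 bp. The exons were more than 3 times as long as the principal transcript in 9 members. In Mrpl33, a small bacterial-type protein, they were 7326 bp against 478 bp, and its level in replicate 1 was 10.9 TPM over all exons and 130.3 TPM over the principal transcript. Its rank among the 78 members was 75 over all exons and 12 over the principal transcript. Mrps10 likewise ranked 69 and 16, Mrpl13 49 and 6, and Mrpl42 33 and 3. The lowest places in the order therefore depended on which transcript was taken as the length, and which transcript these cells make was not tested.

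**Figure D2:**
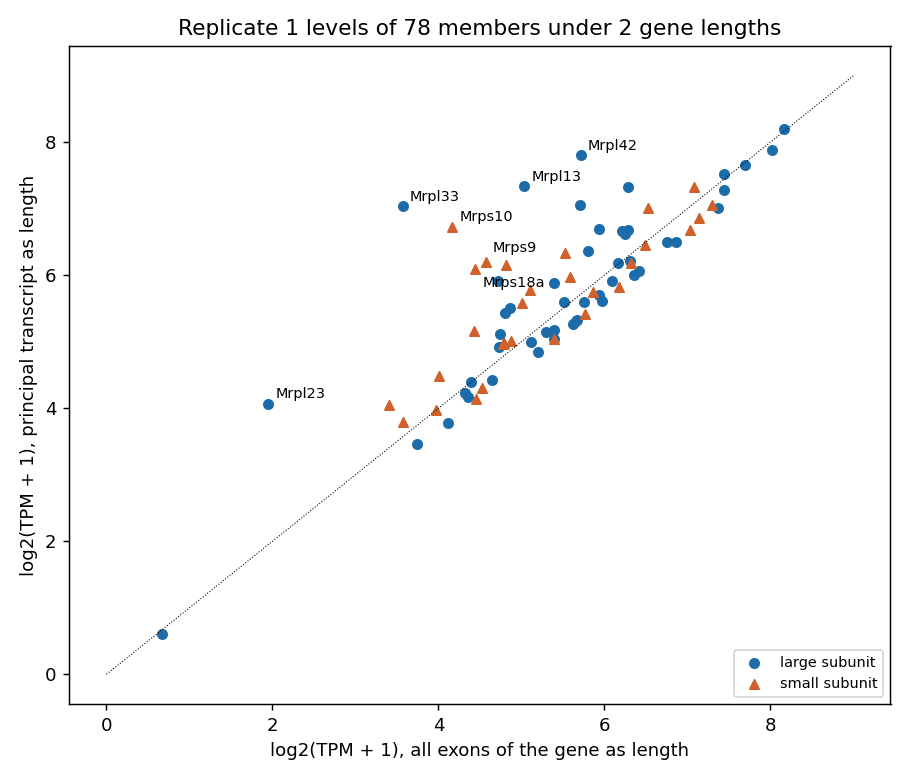
Level in replicate 1 as log2(TPM + 1) over all annotated exons (x axis) and over the principal transcript (y axis) for the 78 genes, large subunit as circles and small subunit as triangles; the dotted line is equality and genes whose exons are over 4 times their principal transcript are named. Mrpl33, Mrps10, Mrpl13 and Mrpl42 lie well above the line.

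Exons of 26 of the 78 members (33.3%) overlapped an exon of a gene on the opposite strand, against 22.1% of protein-coding genes. Of the 9636 protein-coding genes at 1 TPM or more in replicates 1 and 3, 3196 did so, a share near that of the members. The 26 members were 18 of 49 large subunit genes and 8 of 29 small subunit genes, and 14 of them shared at least 10% of their exonic length. The counting was strand-specific, with the forward setting, so the strand of a fragment decides which gene of such a pair it is given to. The 26 genes held 34.1% of the members' exonic length but 55.9, 60.6 and 74.1% of the members' counts in replicates 1, 2 and 3. Over all protein-coding genes the overlapping ones held 27.8% of the length and 43.4, 48.0 and 60.3% of the counts. The median log2(TPM + 1) was higher over the 26 overlapping members than over the 52 others, by 0.48, 0.68 and 0.69 in replicates 1, 2 and 3, a mean of 0.62 ± 0.12 (SD, n = 3). The exact sign-flip permutation test, two-sided, gave p = 0.25, the smallest p possible. With only members that shared at least 10% of their length, the mean difference was 1.47. Over all protein-coding genes, many of which had no count, the overlapping minus non-overlapping difference was 2.97, 0 and 2.49 in replicates 1, 2 and 3. In replicate 2 both of those medians were 0. A higher level of overlapping genes was thus not particular to the members.

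The deep libraries, replicates 1 and 3, were then compared in both classes. The ratio of replicate 3 to replicate 1 was taken as log2 of CPM for the 76 members with 50 counts or more in the 2 libraries together. Its median was -0.54 over 25 overlapping members and -0.93 over 51 members without overlap, a difference of 0.39. Over all protein-coding genes the same medians were -0.50 and -0.85, a difference of 0.35. The difference between classes was not tested. Within the 2 classes of members the ratios had an SD over genes of 0.57 and 0.30. It was above 0 in 6 of 25 overlapping members, against 35.9% of overlapping protein-coding genes, and in 0 of 51 members without overlap, against 3.39% of protein-coding genes without overlap. The highest of the 51 was -0.36, so every one of them had a lower CPM in replicate 3 than in replicate 1. The nuclear oxidative phosphorylation genes without overlap had the same median of -0.93, the cytosolic ribosomal protein genes -0.81 and all genes without overlap -0.84. TMM scaling, which aims to set the bulk of genes equal between libraries, added 0.45 to each ratio, with medians of -0.09 and -0.48. With it the median was still -0.26 over all genes with 50 counts or more and -0.39 over those without overlap. TMM scaling over genes without overlap added 0.85, with medians of 0.30 and -0.08, so whether a ratio lies above 0 depends on the scaling. The 0.39 between the classes is the same under each scaling.

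**Figure D3:**
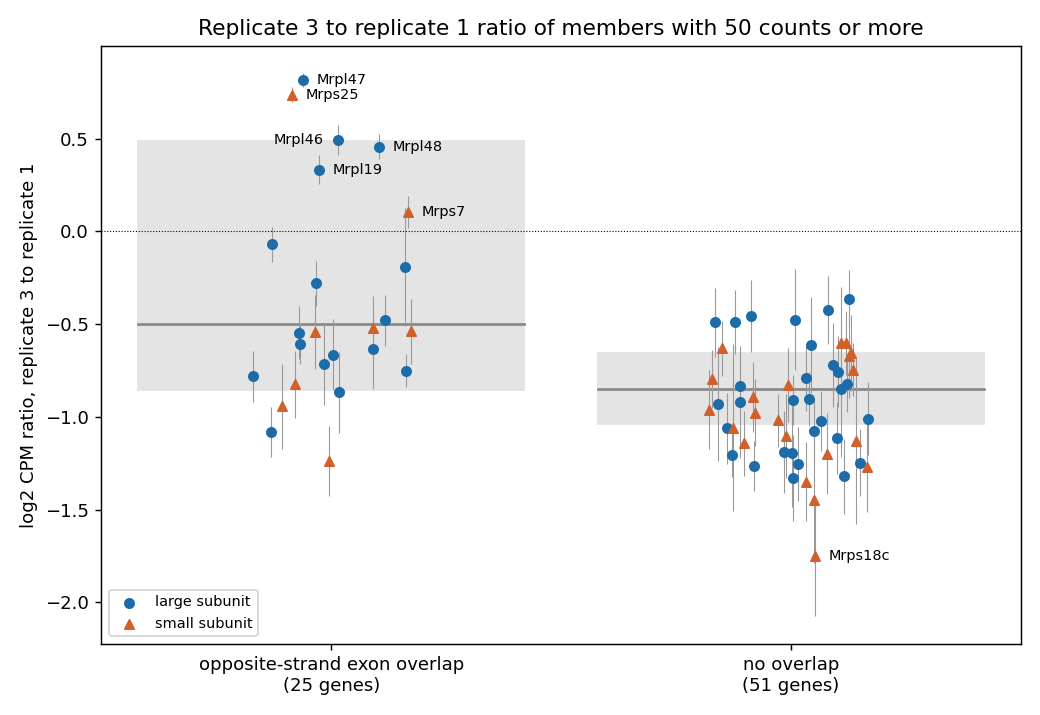
Log2 CPM ratio of replicate 3 to replicate 1 (y axis) for 25 members with opposite-strand exon overlap (left) and 51 without (right), circles for large and triangles for small subunit genes, with counting SE bars; grey boxes span the middle 50% of protein-coding genes of the same class, and the grey line is their median. Mrpl47, Mrps25, Mrpl46, Mrpl48, Mrpl19 and Mrps7, all on the left, lie above 0 and Mrps18c is lowest.

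The 6 overlapping members above 0 were also among the most counted ones. Mrpl47, a large subunit protein, had 2707, 38 and 3562 counts and 286, 355 and 409 TPM in replicates 1, 2 and 3, and its ratio was 0.82 ± 0.04 (counting SE). It was the highest of the 78 members in replicates 1 and 3. Its exons run under those of Ndufb5, a complex I subunit at the head-to-head side with 252, 3 and 85 counts, and of Actl6a at the tail-to-tail side with 564, 6 and 299 counts. Mrps25, a small subunit protein, had 2197, 45 and 2735 counts, with a ratio of 0.74 ± 0.04. It shared 69.8% of its exonic length with the nuclear receptor gene Nr2c2, which had 404, 8 and 304 counts. Both members had more counts than the genes facing them in every library, per kb of exon as well.

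Mrpl46 and Mrps11 face each other head to head on chromosome 7, so both genes of that pair are members. Their exons share 173 bp. Mrpl46 had 626, 4 and 659 counts with a ratio of 0.49 ± 0.08, and Mrps11, a small subunit platform protein, had 156, 3 and 80 counts with a ratio of -0.54 ± 0.20. Mrpl48 had 959, 6 and 984 counts against 262, 3 and 86 counts for Rab6a, a Golgi transport GTPase, and its ratio was 0.46 ± 0.07. Mrpl19 had 702, 10 and 661 counts against 439, 11 and 451 counts for Gcfc2, and Mrps7 had 622, 9 and 500 counts against 294, 1 and 294 counts for Gga3. Mrps7 was the closest to 0, at 0.11 ± 0.09. In replicate 2 Gcfc2 had the higher count of its pair by 1.

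For most other overlapping members the facing gene was the one with more counts. Of 28 overlapping pairs, 15 were head to head, 9 tail to tail and 4 nested. The head-to-head pair of Mrpl46 and Mrps11 enters from each side, because both are members. It thus counts in each of the groups compared below. The facing gene had more counts than the member in 16 of 28 pairs in replicate 1 and in 17 in replicate 3. In the 8 pairs of the 6 members with a ratio above 0 it was 0 of 8 in both libraries, and in the 19 pairs of the other 19 members with 50 counts it was 15 and 16. Per kb of exon it was again 0 of those 8, and 13 and 14 of those 19. The ratio of the facing gene was above 0 in 3 of those 8 pairs and in 17 of those 19. Over all overlapping genes with 50 counts or more the ratio was above 0 in 2231 of 4162. Mrpl12 had 849, 6 and 377 counts, against 6544, 67 and 8645 counts for Gm16755, a long noncoding RNA gene it overlaps. Mrps18b had 139, 2 and 54 counts against 1694, 20 and 2147 counts for the antisense gene Gm16279. Mrps27, which binds the ribosomal RNA in human mitochondria, had 211, 5 and 89 counts against 1604, 10 and 2256 counts for 6430562O15Rik. Mrpl10 had 176, 1 and 83 counts against 1129, 21 and 1556 counts for Gm11574. In all 4 of these pairs the noncoding gene was the higher one in every library.

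In 8 pairs the facing gene was not protein-coding. It had more counts than the member in 7 of them and a ratio above 0 in 8. Gm47106, 1 of the 8, had 12, 0 and 13 counts, under the minimum of 50 set for members. Of the 4162 overlapping genes with 50 counts or more, 2231 had a ratio above 0, among them 1064 of the 2960 protein-coding ones. Most overlapping genes that were not protein-coding thus had a ratio above 0 too. Protein-coding partners could also have more counts than the member. Mrps34, a small subunit protein with 63.4% of its exonic length under Mapk8ip3, had 200, 1 and 103 counts against 3760, 21 and 3779 counts for Mapk8ip3. Mrps30 had 243, 0 and 77 counts against 1037, 4 and 1226 counts for B430218F22Rik. On the same strand, 37.0% of the Mrps34 exons lies under Nme3, which had 1, 0 and 2 counts. Whether the strand setting of the counting matches the library kit was not tested. For the 26 overlapping members, reads of a gene and of the gene facing it may thus not be told apart. The same setting was used for every gene, so the levels and ratios of the 52 members without overlap rest on it as well.

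**Figure D4:**
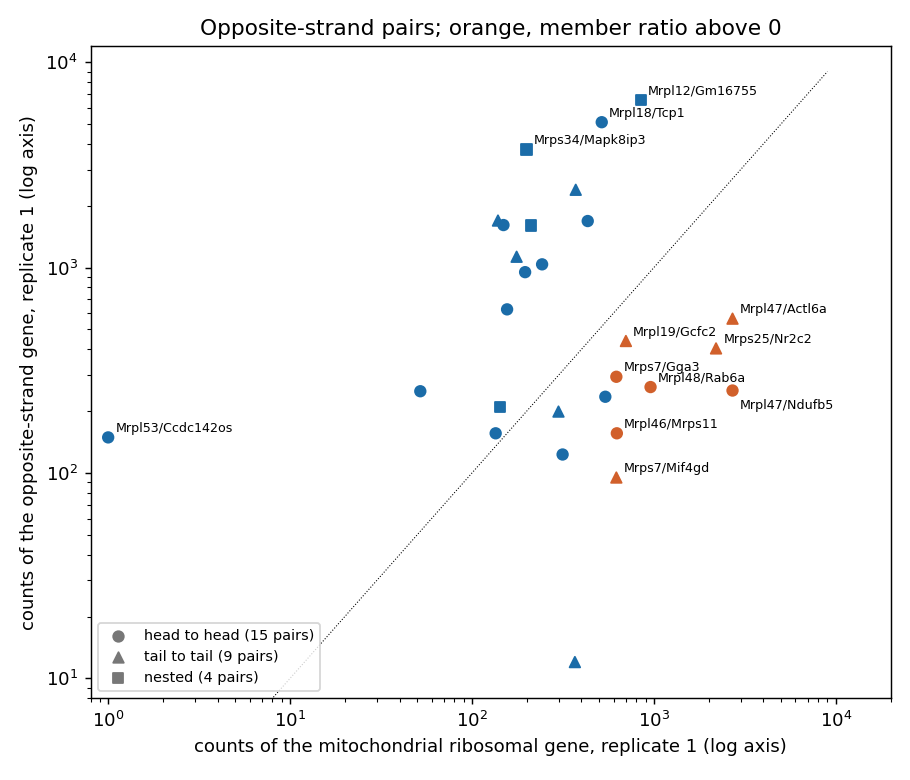
Counts in replicate 1 of the mitochondrial ribosomal gene (x axis, log) and of the gene on the opposite strand (y axis, log) for 28 overlapping pairs, with circles for head to head, triangles for tail to tail and squares for nested; orange marks pairs whose member has a replicate 3 to replicate 1 ratio above 0, and the dotted line is equality. All 8 orange points lie below the line. The pair of Mrpl46 and Mrps11 is drawn from each side, because both are members.

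At the other end, the lowest ratios were those of Mrps18c, Mrps24 and Mrps6, 3 small subunit genes without opposite-strand overlap. Mrps18c had 108, 0 and 24 counts in replicates 1, 2 and 3 and a ratio of -1.75 ± 0.33 (counting SE). Mrps24 had 84, 1 and 23 counts and a ratio of -1.45 ± 0.34, and Mrps6 had 201, 5 and 59 counts and a ratio of -1.35 ± 0.21. All 3 had fewer counts in replicate 3 than in replicate 1. Each also overlaps a gene on its own strand, over 23.2% of the exons of Mrps18c, 15.4% of those of Mrps24 and 15.1% of those of Mrps6, and fragments over both genes of such a pair are left unassigned. The part of this in their ratios was not tested.

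The paralogs Mrps18a, Mrps18b and Mrps18c encode alternative or related forms of one bacterial protein family, and all 3 were read. Mrps18a had 164, 2 and 63 counts, or 20.8, 22.4 and 8.66 TPM, in replicates 1, 2 and 3. Mrps18b had 31.1, 39.5 and 13.1 TPM, and Mrps18c had 46.9, 0 and 11.3 TPM. Mrps18c was the highest of the 3 in replicate 1 and Mrps18b in replicate 3, so their order did not hold across libraries. Over the principal transcript Mrps18a had 67.6, 74.8 and 30.4 TPM, Mrps18b 46.9, 61.3 and 21.4 TPM, and Mrps18c 61.7, 0 and 16.1 TPM. On that scale Mrps18a was the highest of the 3 in replicates 1 and 3. In replicate 1 it lay close to Mrps18c, from 164 and 108 counts. Replicate 2 held 2, 2 and 0 counts of Mrps18a, Mrps18b and Mrps18c, too few to order them. Fragments that map to more than 1 place were not counted, so reads that the paralogs share would be missing from all 3.

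Variation between the 3 libraries was set against counting error gene by gene, with a chi-square test on totals scaled by TMM and Benjamini-Hochberg adjustment over all 7406 genes kept. The 20 members at 0 in replicate 2 were not kept. Of the 58 that were, 33 varied (56.9%), against 63.2% of all genes tested. They were 11 of 22 overlapping members, against 74.6% of overlapping genes, and 22 of 36 members without overlap, against 54.4%. The count depended on the scaling. With library totals 54 of 58 varied, against 88.4% of all genes, and with DESeq2 size factors 26, against 54.3%. With TMM factors taken over genes without overlap, 14 of 58 varied, against 39% of all genes. Of these 9 were overlapping members, against 65.6% of overlapping genes, and 5 were among the 36 without overlap, against 18.4%. The 5 were Mrpl1, Mrpl15, Mrpl38, Mrpl45 and Mrps6. Under TMM scaling 7 of 56 members varied without replicate 1, against 9.47% of genes. Without replicate 2 it was 21 of 77, against 37.9%, and without replicate 3 it was 2 of 58, against 3.65%.

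Among the members without overlap, Mrpl45 and Mrpl15 had the lowest adjusted p under TMM scaling. Mrpl15 had 488, 1 and 152 counts and 26.9, 4.86 and 9.09 TPM in replicates 1, 2 and 3, with a Benjamini-Hochberg adjusted p of 5.8e-09 in the chi-square test on edgeR TMM totals and 0.0043 with factors over genes without overlap. Mrpl45 had 596, 5 and 193 counts, with adjusted p of 5.43e-09 and 0.0245 in the same tests on edgeR totals. Neither call held without replicate 1, with adjusted p of 0.609 for Mrpl15 and 0.891 for Mrpl45 in the chi-square test on edgeR TMM totals, or without replicate 3, with 0.384 and 0.870. Both held without replicate 2, with adjusted p of 5.99e-05 and 4.8e-05 in the same test on edgeR totals. Without replicate 1 or 3, a deep library was set against replicate 2, where Mrpl15 had 1 count and Mrpl45 5. Only 9.47 and 3.65% of all genes tested were called there. Those losses thus cannot decide whether Mrpl15 and Mrpl45 vary. Their ratios were -1.26 ± 0.13 and -1.21 ± 0.12 (counting SE), against a median of -0.93 over members without overlap. The biological coefficient of variation from edgeR was 0.260 over the 58 members, 0.341 over all genes tested and 0.166 over genes without overlap. Each of these values used TMM factors taken over its own set of genes, so they do not share one scaling. The 58 members include 22 with overlap.

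Genes that serve the mitochondrial ribosome from outside the Mrp symbols were read alongside its proteins. Of 5 other proteins of the ribosome, all reached 1 TPM in every library. Gadd45gip1, with 42.0% of its exons under an opposite-strand exon, had 371, 364 and 425 TPM in replicates 1, 2 and 3, and Chchd1, without overlap, had 298, 281 and 119 TPM. Of 16 translation factors, 12 reached 1 TPM in every library and 16 in replicates 1 and 3. Slirp, which stabilises mitochondrial messenger RNA, had 592, 931 and 819 TPM with 34.4% overlap, and Tufm, the elongation factor that delivers aminoacyl-tRNA, had 74.1, 77.7 and 26.5 TPM without overlap. Of 24 assembly factors, 12 reached 1 TPM in every library and 23 in replicates 1 and 3, led by Malsu1 at 94.0, 142 and 134 TPM with 40.5% overlap. Of 18 factors of mitochondrial DNA expression, 14 and 16 did so, among them Myc at 233, 137 and 109 TPM and the ETS factor gene Gabpa at 108, 87.1 and 108 TPM. The chi-square test with TMM scaling called 5 of 5, 8 of 12, 5 of 12 and 10 of 14 kept genes of these lists, against 63.2% of all genes.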

How the data were processed

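The authors deposited raw fragment counts for each gene, with no normalization. Per the file headers, featureCounts 1.4.6-p4 made them on GENCODE M13 from exons grouped by gene, requiring both mates of a pair to map and using strand setting 1 (forward); the headers name no option for fragments over several genes or mapping to several places. Per the labels, mm10 was the assembly. An exonic length in bp for every gene is deposited beside the counts. The library kit is not given in the sources used here; the labels name total RNA-seq but link a protocol named for poly(A)+ RNA. No column of another series was used (0 columns).

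Symbols were matched for 50376 of 50600 identifiers. CPM and TPM were computed from counts and length, with a pseudocount of 1 on the log2 scale. Opposite-strand overlap was computed with bedtools 2.31.1 from the deposited exons, and 8189 genes had some. Principal transcripts came from GENCODE M21, capped at the deposited length; in 11 members the M21 transcript was longer. With 1 group, edgeR's quasi-likelihood test was not possible. TMM factors and dispersions came from edgeR 4.0.16 and alternative size factors from DESeq2 1.42.0, in R 4.3.3; the rest ran in Python 3.11.15. The chi-square test had 2 degrees of freedom and a threshold of 0.05 after adjustment, over genes with counts enough for edgeR's filter in all 3 libraries; expected counts in replicate 2 were small, so the approximation is rough. On counts simulated for 7406 genes it called 0.222% of 7206 unchanged genes. It called 100% of 100 genes with a 2-fold change and of 100 with a 4-fold change. Those changes were set in replicate 3 alone, in genes with 100 counts or more over the 3 libraries. The simulated counts varied by counting error only. Some kept members had fewer than 100 counts, such as Mrps33 with 39, 1 and 14 in replicates 1, 2 and 3. These shares describe the simulated counts alone and give no error rate for the calls on members. Recovery of changes in the members, with a median of 2 counts in replicate 2, was not tested separately. Shares have exact Clopper-Pearson 95% intervals.

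The members and lists were chosen with earlier results of these data known. Named members were the 5 highest and 5 lowest without overlap, those with 50% overlap or more, the 3 highest and 3 lowest ratios and the lettered paralogs; others are named for a role or a partner. Alternatives changed the pseudocount, unit, summary, scaling, filter and overlap minimum, and left out each replicate.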

Additional observations from a re-analysis of the deposited data

How the results depend on the processing

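Averaged over the libraries, the median level of large over small subunit genes kept its direction under every alternative tried. Against 0.80 as reported, it was 0.11 in CPM, 0.44 between means and 0.40 over the principal transcript. It ranged over 0.74 to 0.86 with 1 replicate left out. Over the principal transcript it was 0.10, 0.63 and 0.45 in replicates 1, 2 and 3, so it was largest in the shallow replicate 2. The overlapping minus non-overlapping level was 0.62 as reported, 0.74 in CPM, 0.95 between means, 1.47 with at least 10% of the length shared and 0.75 over the principal transcript. The principal transcript length, the moved subunit symbols and the limit to protein-coding partners were chosen after seeing the data. Of members without overlap, 36 reached 1 TPM in every library. Members varying between libraries were 33 as reported, 54 with library totals (88.4% of all genes), 26 with DESeq2 size factors (54.3%), 14 with TMM over genes without overlap and 2 to 21 with 1 replicate left out, where 1 library fewer was tested. Over all genes the calls were 4681 as reported, 6547 with library totals, 2886 with TMM over genes without overlap and 271 to 4167 with 1 replicate left out. Against library totals, TMM added 0.45 to the log2 ratio of replicate 3 to replicate 1, and TMM over genes without overlap added 0.85. The causes of these changes in the calls and levels were not tested. In replicate 2 a member had a median of 2 counts, so its levels of single genes are coarse. No paired analysis was possible because the study has 1 group.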
